A study of Mus musculus with 18 samples.

Results

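The genes of the mouse beta-globin cluster were followed in nascent RNA from sorted fetal liver cells. The members are the adult beta-type genes Hbb-b1 and Hbb-b2 and the embryonic beta-type genes Hbb-y and Hbb-bh1. They were chosen by symbol, and all 4 were found among the 54232 rows of the deposited count table, of which 30157 held at least 1 count. Livers came from C57BL/6 embryos at e12.5 to e13.5. The 5 erythroid populations were sorted as lineage-negative cells by the transferrin receptor CD71 and the late erythroid antigen Ter119, in the order S0-Low (CD71-; Ter119-), S0-Medium (CD71 medium; Ter119-), S1 (CD71 high; Ter119-), S2 (CD71 high; Ter119 medium) and S3 (CD71 high; Ter119 high). The study describes S0-Low as holding erythroid burst-forming units together with haematopoietic stem and progenitor cells. Lineage-positive cells (Lin+) from the same tissue were a comparison outside the series. Each of these groups had 3 libraries, 18 in all. Every group was rested in culture for 6 h after sorting and given 500 µM 4-thiouridine (4sU) for 45 min, so that RNA made in that time could be pulled down and sequenced. No group carried a mutation or transgene. The study calls the libraries of a group biological replicates, and neither it nor the labels say which embryos, litters or sorts they came from, so a p-value here measures the spread between these libraries.

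Haemoglobin is built from alpha-like and beta-like chains, each holding a haem group. In the mouse, the embryonic beta-like genes are used mainly by primitive red cells, which arise in the yolk sac and circulate through the fetal liver, and the adult genes by definitive red cells, which are made in the fetal liver at this age. All genes of the cluster share a distal set of enhancers, the locus control region, and Hbb-bh1 is known to be used before Hbb-y as primitive cells mature.

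The cluster lies on the minus strand of chromosome 7. In RefSeq coordinates on GRCm38.p6, in the direction of transcription, Hbb-y (embryonic) spans chr7:103851754-103853207, Hbb-bh1 (embryonic) chr7:103841638-103843162, Hbb-bh2 chr7:103838801-103840734, the pseudogene Hbb-bh3 chr7:103832628-103833732, and the adult pair chr7:103826523-103827928 and chr7:103812524-103813923. RefSeq names the adult pair Hbb-bs and Hbb-bt. The gene that the count table identifies as ENSMUSG00000052305 (Hbb-b1) matched Hbb-bs, and ENSMUSG00000073940 (Hbb-b2) matched Hbb-bt, by transcript sequence. The names Hbb-b1 and Hbb-b2 are not used alike in all sources, so the identifiers define the genes here.

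The coding sequence had 444 bases in each of the 4 genes. Hbb-b1 and Hbb-b2 differed at 1 of these bases (C417T, Hbb-b1 base first, counted from the A of the start codon), which is 99.8% identity, whereas Hbb-y and Hbb-bh1 were 74.3% and 74.1% identical to Hbb-b1 and 76.4% identical to each other. The last coding bases, 385 to 444, are shown because they hold the only base that separates the adult pair within the coding sequence. They come from the GENCODE transcripts, with capitals where a gene differs from Hbb-b1:
Hbb-b1: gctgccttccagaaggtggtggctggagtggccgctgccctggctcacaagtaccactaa
Hbb-b2: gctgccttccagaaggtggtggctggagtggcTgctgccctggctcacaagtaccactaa
Hbb-y: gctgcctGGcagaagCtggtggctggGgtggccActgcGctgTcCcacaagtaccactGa
Hbb-bh1: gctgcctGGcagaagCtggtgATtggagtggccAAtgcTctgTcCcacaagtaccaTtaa
Hbb-b2 differed from Hbb-b1 at 1 base of this stretch, Hbb-y at 9 and Hbb-bh1 at 11. Over whole spliced transcripts, 50.3% of the 31-base words of Hbb-b1 also occur in Hbb-b2 and 59.4% of those of Hbb-b2 occur in Hbb-b1. Hbb-y and Hbb-bh1 shared 0% of theirs with any other protein-coding gene of the GENCODE set. Pseudogenes, noncoding transcripts and introns were not searched, and the transcript set behind the counts is not given. Among these spliced transcripts the embryonic genes have sequence of their own. The division of reads within the adult pair rests on the part of each transcript that is not shared.

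The 250 bases before the RefSeq start of each gene are shown for the 3 genes that had an entry, since these genes rose together in the data below. They are written 5′ to 3′ on the gene's strand, from GRCm38.p6, with capitals at the CACCC letters, the CCAAT letters and the TATA-type letters (TATAA or its variant ATAAA) on that strand. Hbb-b1 is at chr7:103827929-103828178, Hbb-b2 at chr7:103813924-103814173 and Hbb-y at chr7:103853208-103853457, all on the minus strand:
Hbb-b1: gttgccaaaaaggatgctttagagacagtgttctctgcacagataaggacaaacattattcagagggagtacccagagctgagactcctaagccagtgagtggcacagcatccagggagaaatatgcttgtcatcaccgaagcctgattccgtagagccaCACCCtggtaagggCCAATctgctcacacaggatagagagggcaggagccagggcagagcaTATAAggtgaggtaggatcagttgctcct
Hbb-b2: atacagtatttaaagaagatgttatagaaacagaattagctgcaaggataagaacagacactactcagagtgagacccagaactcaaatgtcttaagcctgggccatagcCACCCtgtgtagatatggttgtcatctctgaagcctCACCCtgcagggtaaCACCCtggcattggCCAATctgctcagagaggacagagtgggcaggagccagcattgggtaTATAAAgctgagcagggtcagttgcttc
Hbb-y: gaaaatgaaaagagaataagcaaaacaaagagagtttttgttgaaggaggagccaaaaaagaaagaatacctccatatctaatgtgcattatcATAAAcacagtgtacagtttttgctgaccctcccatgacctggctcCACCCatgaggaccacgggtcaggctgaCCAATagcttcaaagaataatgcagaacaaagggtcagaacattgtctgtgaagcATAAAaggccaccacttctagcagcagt
Hbb-bh1 is named only. The letters CACCC began at -90 in Hbb-b1, at -140, -104 and -89 in Hbb-b2, and at -111 in Hbb-y, counted back from the start. CCAAT followed at -76, -75 and -83. TATAA began at -29 in Hbb-b1 and at -28 in Hbb-b2, where it overlaps ATAAA, and Hbb-y held ATAAA at -28 and at -157 and no TATAA. Over both strands, 52.0% of the 32851 RefSeq windows of this length held CACCC, 33.8% CCAAT, 22.8% TATAA and 37.3% ATAAA, so each match is a description of the letters alone.

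Library totals ran from 9452476 to 40567976 counts, so that 3 counts stood for 0.0740 to 0.317 CPM (counts scaled to library size). The shallowest library was S0-Low replicate 3. Levels below are CPM on library sizes scaled by trimmed mean of M-values (TMM). The summed level of 6 erythroid markers, among them Slc4a1 and Alas2, was 485 to 928 CPM in S0-Low, between 20832 and 34177 CPM in S3, and 262 to 349 CPM in Lin+. The 8 stem and progenitor markers summed to 1760 to 2558 CPM in S0-Low, 28.4 to 29.8 CPM in S3 and 1522 to 2308 CPM in Lin+. All 8 of 8 neutrophil markers had counts in Lin+, with a summed level of 3302 to 5941 CPM, and 7 of 8 in S0-Low, with 329 to 777 CPM and Camp at 0. The macrophage list summed to 867 to 1078 CPM in Lin+ and to at most 4.37 CPM in S3, where Csf1r, Lyz2 and the complement genes C1qa, C1qb and C1qc were at 0. The 5 hepatocyte markers, Alb and Afp among them, were all at 0 in S3. The labels call all groups primary erythroblasts, Lin+ included, which the markers of Lin+ go against.

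Per kilobase of transcript, Hbb-b1 was the most abundant member in every erythroid library except S0-Low replicate 1. In the S0-Low libraries, in replicate order, it stood at 3.77, 15.2 and 24.3 CPM. In S0-Medium it stood at 18.8, 41.8 and 128 CPM, and in S1 at 135, 174 and 579 CPM. The third library of both populations was far above the other two. In S2 it stood at 505, 807 and 1154 CPM, and in S3 at 4181, 6844 and 6521 CPM. All S3 libraries lay above all S2 libraries.

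Hbb-b2 had a higher level in each later population within every replicate number. It stood at 4.37, 9.68 and 20.0 CPM in S0-Low, at 16.5, 21.3 and 94.2 CPM in S0-Medium, and at 102, 85.1 and 181 CPM in S1. It reached 294, 283 and 467 CPM in S2, and 1707, 1927 and 1937 CPM in S3. Replicate 3 was the highest library in every erythroid population, in S3 by a small margin, and there the spread of Hbb-b2 was narrow (1857 ± 130 CPM, SD, n = 3).

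Hbb-y, an embryonic gene, was at the edge of detection in the early populations. S0-Low held 0, 3 and 0 counts, S0-Medium 0, 5 and 12, and S1 5, 5 and 49. S2 held 99, 46 and 130 counts, which is 4.19, 1.23 and 5.96 CPM, and S3 held 998, 582 and 1856 counts, which is 75.6, 26.2 and 107 CPM. Every S3 library was above every S2 library, and S3 replicate 2 was the lowest of the S3 libraries although it was the deepest of them.

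Hbb-bh1, the other embryonic gene, had no count in S0-Low. The 3 S0-Medium libraries held 11, 7 and 181 counts, the S1 libraries 17, 32 and 408, and the S2 libraries 41, 166 and 516. In S3 the counts were 376, 884 and 1021, or 28.5, 39.8 and 58.7 CPM. Replicate 3 was the highest in S0-Medium, S1 and S2 by a wide margin, and S2 replicate 3 (23.7 CPM) came close to the lowest S3 library.

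**Figure D1:**
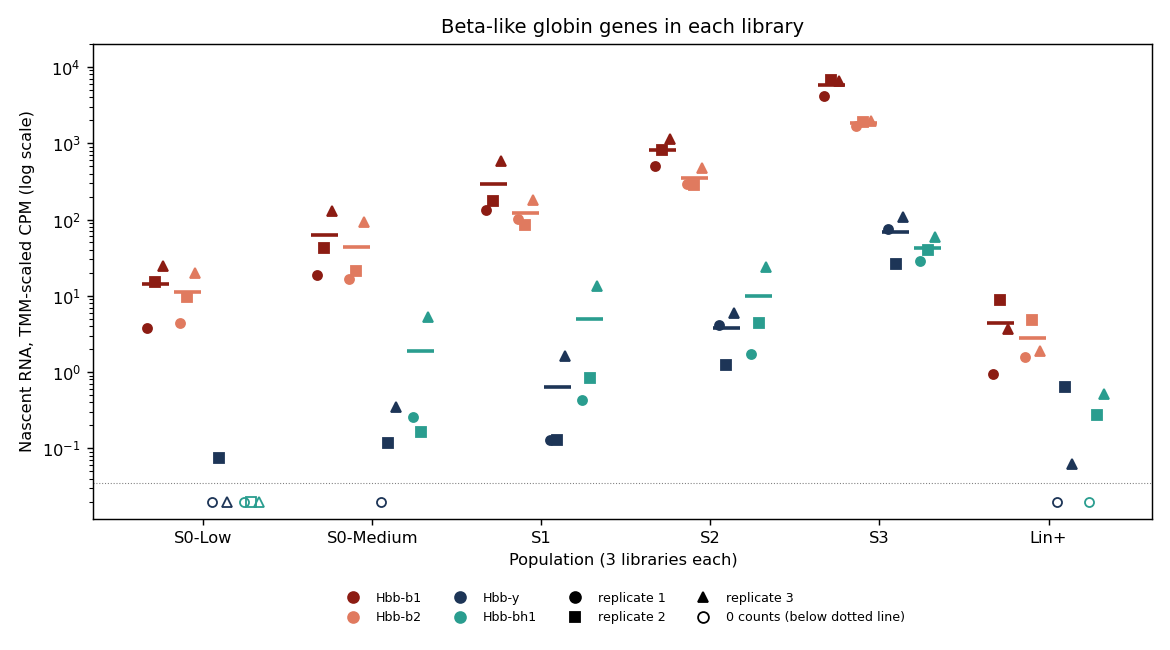
Nascent RNA of each beta-like gene in every library, as TMM-scaled CPM on a log axis; point shapes give the replicate, short lines the mean of populations with no library at 0, and open points below the dotted line libraries with 0 counts. The adult genes rise from 3.77 to 24.3 CPM (Hbb-b1, S0-Low) to 4181 to 6844 CPM (S3), and the embryonic genes from 0 or near 0 to between 26.2 and 107 CPM (Hbb-y, S3).

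All 4 genes were higher in S3 than in S0-Low by edgeR's quasi-likelihood test, against 13.4% of the 16555 genes tested that were called higher in S3. The log2 fold change was 8.67 (SE 0.99) for Hbb-b1 and 7.36 (SE 0.78) for Hbb-b2, with adjusted p-values of 1.93e-05 and 1.21e-05 in edgeR. For Hbb-y it was 10.95 (SE 1.78, adjusted p = 0.0003 in edgeR). With 3436 counts in S3 against 3 in S0-Low, Hbb-y was 1971-fold higher, with an exact 95% interval for counting error of 674-fold to 9561-fold. All 3 of those S0-Low counts were in replicate 2, and the fitted value ran from 10.26 (without S0-Low replicate 1) to 14.01 (without S0-Low replicate 2) when single libraries were left out. Hbb-bh1, with 2281 counts in S3 and none in S0-Low, was at least 1308-fold higher, taking 3 counts over the S0-Low group as the floor (adjusted p = 0.0017 in edgeR). Every S3 library was above every S0-Low library for all 4 genes, which held for 16.6% of the tested genes. In bulk RNA, fewer cells of a type and less RNA per cell cannot be told apart, so these are levels of the sorted population. Over all tested genes the median change in this comparison was -0.54 on the log2 scale with TMM and -1.36 on library totals, where the members had 7.76 (Hbb-b1), 6.47 (Hbb-b2) and 10.12 (Hbb-y). That median was -0.10 when each compared library had to hold 10 or more counts of a gene (7873 genes) and -0.08 with no filter.

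Of the single steps, S3 against S2 was the step at which members passed the threshold. Hbb-b1 rose by a log2 fold change of 2.84 (SE 0.76, adjusted p = 0.0288), Hbb-b2 by 2.42 (SE 0.62, adjusted p = 0.0243) and Hbb-y by 4.20 (SE 1.27, adjusted p = 0.0488) in edgeR, against 3.26% of tested genes called higher in S3. Hbb-bh1 had a log2 fold change of 2.10 (SE 1.46, adjusted p = 0.379 in edgeR). With the replicate number as a block, Hbb-bh1 also passed, with 3.20 (adjusted p = 0.0247 in edgeR), when 7.3% of genes were called higher. All S3 libraries lay above all S2 libraries for each of the 4 genes, as they did for 8.99% of the tested genes. These calls were close to the threshold in the main fit. Left-out libraries aside, 10 alternative settings were run. The call was kept in 9 of them for Hbb-b1, in 9 for Hbb-b2 and in 7 for Hbb-y. On library totals only Hbb-b1 passed (0.0497, with Hbb-b2 at 0.0511 and Hbb-y at 0.0671), and in a fit of only the 6 libraries compared only Hbb-b2 did (0.0461, with Hbb-b1 at 0.0510 and Hbb-y at 0.0610; adjusted p-values of edgeR). None of the 4 genes was called without S2 replicate 1, without S2 replicate 2 or without S3 replicate 3, and the adjusted p of Hbb-y was also above 0.05 without S2 replicate 3 (0.0550) and without S3 replicate 1 (0.0787).

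With all libraries in the fit, the earlier steps gave positive log2 fold changes for all 4 genes and no call, and edgeR called 0% of the 16555 genes higher at each of them. At an unadjusted p under 0.05, the number of all genes passing was 539 for S0-Medium against S0-Low, 1135 for S1 against S0-Medium and 667 for S2 against S1. DESeq2 called 47, 401 and 147 genes, of which 28, 33 and 6 were higher and 19, 368 and 141 lower in the later population. With the replicate block, edgeR called 22, 28 and 0 genes higher at these steps. From S0-Low to S0-Medium the log2 fold change was 2.13 (SE 0.74) for Hbb-b1 and 1.96 (SE 0.62) for Hbb-b2, and these were 1.04 and 0.71 without S0-Medium replicate 3. Hbb-bh1 went from 0 to 199 counts, at least 50.2-fold on the same floor, and DESeq2 called it (adjusted p = 0.0076). Of these counts 181 were in S0-Medium replicate 3, without which the bound was 6.33-fold. It was the only member whose S0-Medium libraries were all above the S0-Low libraries, which held for 5.2% of the tested genes. Hbb-y had 17 counts against 3, a 4.29-fold ratio with an exact 95% counting interval from 1.24 to 22.8, and without S0-Medium replicate 3 the ratio was 1.76-fold (0.342 to 11.3).

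From S0-Medium to S1 the log2 fold change was 2.23 (SE 0.74) for Hbb-b1, 1.48 (SE 0.61) for Hbb-b2, 2.00 (SE 1.23) for Hbb-y and 1.38 (SE 1.43) for Hbb-bh1. Without S1 replicate 3 the last of these turned to -1.58 and that of Hbb-y to -0.24. The adult genes kept their sign, from 1.30 (without S1 replicate 3) to 3.24 (without S0-Medium replicate 3) for Hbb-b1 and from 1.03 (without S0-Medium replicate 1) to 2.64 (without S0-Medium replicate 3) for Hbb-b2. Hbb-b1 was the only member with no overlap between these populations on the TMM scale, as 6.96% of genes were, and its libraries overlapped on library totals. With the replicate block edgeR called Hbb-b1 (2.34, adjusted p = 0.0282), when 0.169% of genes were called higher. From S1 to S2 the change was 1.47 (SE 0.72) for Hbb-b1, 1.50 (SE 0.61) for Hbb-b2, 2.59 (SE 1.20) for Hbb-y and 1.00 (SE 1.42) for Hbb-bh1, the last turning to -0.68 without S2 replicate 3. Without S1 replicate 3 these were 2.41, 1.90, 4.83 and 3.96. The S2 libraries of Hbb-b2 were all above its S1 libraries, which held for 3.61% of the tested genes. Each gene was higher in the later population in 3 of 3 same-numbered pairs at every step, except for Hbb-y from S0-Low to S0-Medium, where it was 2 of 3. These comparisons share populations, so each fold change uses libraries that its neighbour also uses.

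Levels can be set side by side between genes only per length. Per kilobase of spliced transcript, S3 held 7518 ± 1868 CPM of Hbb-b1, 2641 ± 185 CPM of Hbb-b2, 105 ± 61.4 CPM of Hbb-y and 68.9 ± 24.8 CPM of Hbb-bh1 (SD, n = 3). The ranges of Hbb-b1 and Hbb-b2 in S3 did not overlap, whereas those of Hbb-y (39.7 to 161 CPM per kilobase) and Hbb-bh1 (46.4 to 95.6) did. In S1 the order of the embryonic genes was the other way round, at 0.955 ± 1.32 CPM per kilobase for Hbb-y and 8.08 ± 12.2 for Hbb-bh1. Within each of the 3 S1 libraries Hbb-bh1 was above Hbb-y, although the ranges over libraries overlapped. In the S0-Low libraries the adult genes stood at 18.6 ± 13.2 (Hbb-b1) and 16.1 ± 11.3 (Hbb-b2) CPM per kilobase and were not separated. How reads from introns were treated is not given in the sources used here, so the length of nascent RNA behind a count may exceed the spliced length.

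As a share of all counts, which needs no scaling factor, the 4 genes took 0.00318% ± 0.00238 in S0-Low and 0.0128% ± 0.0127 in S0-Medium (SD, n = 3). Their share was 0.0447% ± 0.0338 in S1, 0.110% ± 0.0337 in S2, and 0.513% ± 0.0800 by the S3 stage. The SD was about as large as the mean in S0-Medium, where replicate 3 alone took 0.0274%, and was smallest relative to the mean in S3.

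Adult genes supplied nearly all beta-like counts in every erythroid library. The embryonic share, Hbb-y plus Hbb-bh1 over the 4 genes, was 0.718%, 0.442% and 2.48% in the S0-Medium libraries. It was 0.236%, 0.371% and 1.97% in S1, 0.736%, 0.516% and 1.80% in S2, and 1.74%, 0.748% and 1.92% in S3. Replicate 3 was the highest library in each of these populations, and its 95% Wilson interval (2.16% to 2.85% in S0-Medium, 1.80% to 2.16% in S1) lay clear of the others there, S3 replicate 1 being the closest to it (1.65% to 1.83% against 1.85% to 1.99%). In S0-Low, replicate 2 had 3 embryonic counts of 1002 (0.299%), and the 0 embryonic counts of replicates 1 and 3 allow shares of up to 0.952% and 0.562% (3 counts of 315 and of 534), or up to 1.20% and 0.714% by the Wilson interval. Libraries were made with 14 cycles of PCR and without molecular identifiers, so such intervals and floors cover counting error only.

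The adult-to-embryonic log2 ratio averaged 6.70 ± 1.27 in S0-Medium and 7.46 ± 1.61 in S1 (SD, n = 3). It averaged 6.81 ± 0.94 in S2, against 6.18 ± 0.76 in S3. The S3 ratio was below the S2 ratio in 3 of 3 same-numbered pairs, by 0.63 on average, and by the two-sided exact permutation test p was 0.4 (0.7 adjusted over 21 ratio comparisons by the Benjamini-Hochberg method). The S1 ratio was above the S0-Medium ratio in 3 of 3 pairs, by 0.76 (exact permutation p = 0.5, adjusted p = 0.74), and the S2 ratio above the S1 ratio in 1 of 3, with a difference of -0.65 (exact permutation p = 0.6). Leaving out single libraries moved these differences widely, to between 0.056 (without S0-Medium replicate 3) and 1.67 (without S1 replicate 3) for S1 against S0-Medium, between -1.56 (without S1 replicate 3) and -0.032 (without S1 replicate 1) for S2 against S1, and between -1.15 (without S2 replicate 3) and -0.24 (without S2 replicate 2) for S3 against S2. With 3 libraries against 3 this test cannot go below 0.1, and over the 3 pairs the exact sign-flip test, which cannot go below 0.25, gave p = 0.25 for S1 against S0-Medium and for S3 against S2. The S0-Low ratio of 9.17 ± 0.96 was above all S0-Medium and S3 libraries (exact permutation p = 0.1 for each, adjusted p = 0.35), but in S0-Low replicates 1 and 3 it was set by the pseudocount of 0.5 counts, because no embryonic count was found there. With Hbb-y alone as the embryonic gene, the difference of S0-Medium from S0-Low turned from -2.47 to 0.75.

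**Figure D2:**
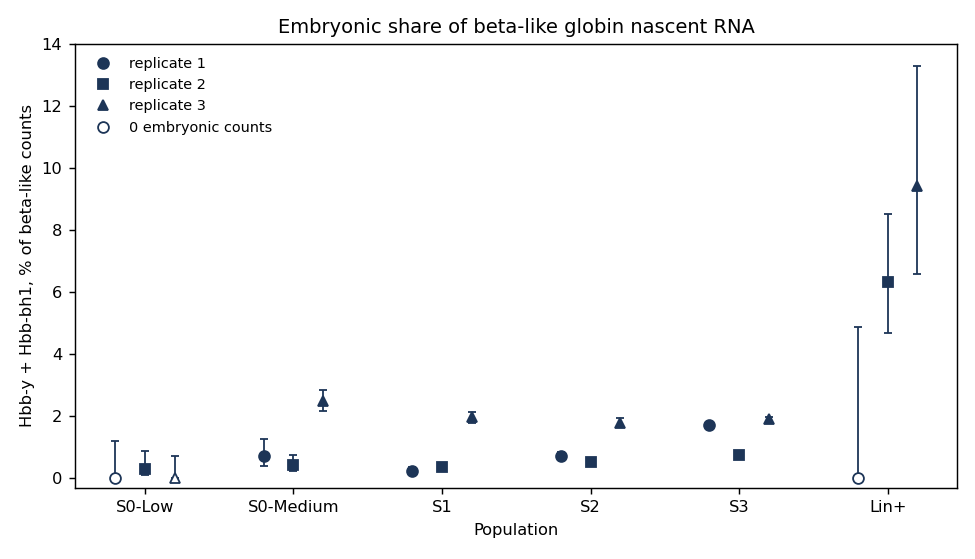
Embryonic share (Hbb-y plus Hbb-bh1) of beta-like counts, in percent, for each library, with 95% Wilson intervals for counting error; shapes give the replicate and open points mark libraries with 0 embryonic counts. From S0-Medium to S3 the share stays between 0.236% and 2.48%, with replicate 3 the highest in each population, and in Lin+ replicates 2 and 3 it is 6.34% and 9.43%.

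In the adult pair, the number of Hbb-b1 counts per Hbb-b2 count was 0.864, 1.57 and 1.22 in S0-Low, 1.14, 1.96 and 1.36 in S0-Medium, and 1.33, 2.04 and 3.20 in S1. It was 1.72, 2.85 and 2.47 in S2 and 2.45, 3.55 and 3.37 in S3. The S3 libraries were all above the S0-Low libraries, by 1.38 on the log2 scale (exact permutation p = 0.1, the smallest possible, adjusted p = 0.35), and S3 was above S2 in 3 of 3 same-numbered pairs (difference 0.42, exact permutation p = 0.3). The ratio rose at 11 of the 12 steps between same-numbered libraries, the exception being replicate 3 from S1 to S2. Since these genes share much of their sequence, the ratio depends on how the quantifier divided the shared reads.

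In the embryonic pair, Hbb-y was the smaller part in every S1 library and the larger part in 2 of 3 S3 libraries. It made up 5 of 22, 5 of 37 and 49 of 457 embryonic counts in S1, which is 10.7% to 22.7%. The shares were 70.7%, 21.7% and 20.1% in S2, and 72.6%, 39.7% and 64.5% in S3. Its share was higher in S3 than in S2, and in S2 than in S1, in 3 of 3 same-numbered pairs. On the log2 scale, the Hbb-y to Hbb-bh1 ratio went from -2.43 ± 0.70 in S1 to -0.85 ± 1.83 in S2 and 0.56 ± 1.04 in S3 (SD, n = 3). The difference was 1.57 between S2 and S1 and 1.41 between S3 and S2, and each gave an exact permutation p of 0.3 (adjusted p = 0.63). Leaving out single libraries moved the first to between 0.51 (without S2 replicate 1) and 2.14 (without S2 replicate 3), and the second to between 0.84 (without S2 replicate 3) and 2.47 (without S2 replicate 1). In S0-Medium 2 of the libraries held fewer than 20 embryonic counts, and the Hbb-y share there spread from 0% to 41.7%.

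**Figure D3:**
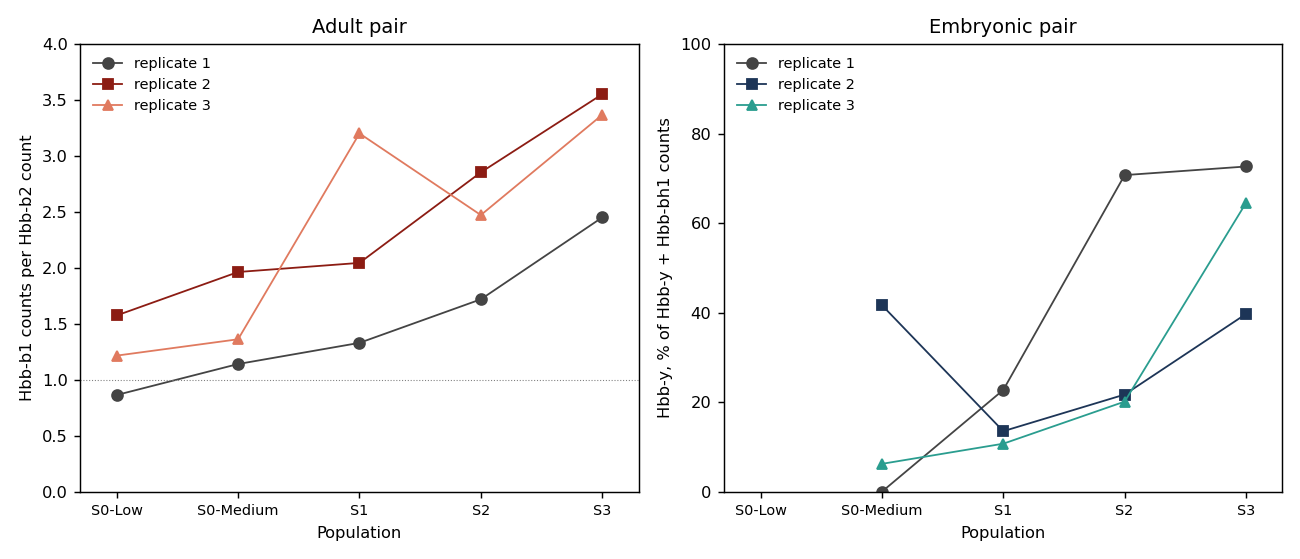
Left, Hbb-b1 counts per Hbb-b2 count; right, Hbb-y as a percentage of Hbb-y plus Hbb-bh1 counts, in the erythroid populations; lines join libraries with the same replicate number, and libraries with fewer than 10 embryonic counts (all of S0-Low) are left out on the right. The adult ratio goes from 0.864 to 1.57 in S0-Low to 2.45 to 3.55 in S3, and the Hbb-y share from 10.7% to 22.7% in S1 to 39.7% to 72.6% in S3.

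The partner chains moved with the cluster. The adult alpha genes Hba-a1 and Hba-a2, near-identical copies whose reads may also be divided between them, rose from S0-Low to S3 by log2 fold changes of 8.20 (SE 0.92) and 9.71 (SE 0.91). The embryonic alpha-like gene Hba-x had 0 counts in S0-Low and 594, 124 and 560 in S3, at least 733-fold higher. The theta gene Hbq1b rose by 10.88 (SE 1.72), and Hbq1a had 473 counts against 1, an 814-fold ratio with an exact 95% counting interval from 145 to 32213. All 5 of 5 alpha-like genes were called higher in S3 than in S0-Low by edgeR, against 13.4% of the tested genes. Their median log2 fold change was 9.71, or 9.52 with Hba-x at its bound, against -0.54 for all genes. From S2 to S3 Hba-a1 and Hba-a2 passed, with adjusted p-values of 0.0308 and 0.009 in edgeR, against 3.26% of tested genes called higher, and Hba-x, Hbq1a and Hbq1b did not (0.085, 0.288 and 0.130). On library totals Hba-a1 no longer passed (0.0573). With the replicate block, when 7.3% of genes were called higher, 4 of the 5 passed, with Hba-x at 0.019 and Hbq1b at 0.0033 in edgeR.

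Adult beta-like counts per adult alpha-like count shifted between populations while both rose. Every S0-Low library (1.45 to 1.96) was above every S0-Medium library (1.17 to 1.30) and every S3 library (1.20 to 1.39). The ratio was 1.68 ± 0.256 in S0-Low and 1.23 ± 0.0641 in S0-Medium (SD, n = 3). S1 libraries had 1.50 ± 0.0222, S2 libraries 1.38 ± 0.239 and S3 libraries 1.29 ± 0.0954. The lowest erythroid library stood at 1.11 (S2 replicate 1) and the highest at 1.96 (S0-Low replicate 3). Embryonic beta-like counts per Hba-x count were 5.5, 6 and 6.66 in S0-Medium and 2.44, 4.11 and 4.15 in S1. They were 20, 7.31 and 12.7 in S2, and 2.31, 11.8 and 5.14 in S3. The first 2 values of S0-Medium rest on 2 Hba-x counts each and the first of S2 on 7, so these are imprecise. Hba-x was lowest in S3 replicate 2 (5.59 CPM against 45.0 and 32.2 CPM), the library in which Hbb-y was also lowest, whereas Hbb-bh1 there lay between the other libraries. Of the primitive erythroid list, the water channel gene Aqp3 rose from S0-Low to S3 by 3.75 (SE 1.05, adjusted p = 0.0126 in edgeR) and Aqp8 had 0.93 (SE 1.81, adjusted p = 0.71). From S2 to S3, the step at which Hbb-y rose, Aqp3 went from 68.5 ± 18.5 to 38.1 ± 34.6 CPM (SD, n = 3, log2 fold change -0.84, adjusted p = 0.603 in edgeR) and Aqp8 from 1.90 ± 1.47 to 0.346 ± 0.599 CPM (-2.41, adjusted p = 0.432 in edgeR). The part that primitive red cells have in the embryonic counts was not tested.

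Of the remaining genes of the cluster, Hbb-bh2 had at most 8 counts in any library except S1 replicate 3 (38), S3 replicate 2 (62) and S3 replicate 3 (141), and S3 replicate 1 had 0. It passed between S3 and S0-Low (adjusted p = 0.0189 in edgeR) on 203 counts against 1, a 349-fold ratio with an exact 95% counting interval from 62.0 to 13863. Hbb-bh0 had 0 counts in all 18 libraries and Hbb-bh3, a pseudogene, had 1 count in all.

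Lin+ cells held little of any member. Hbb-b1 stood at 0.943, 8.71 and 3.71 CPM in the Lin+ libraries and Hbb-b2 at 1.58, 4.87 and 1.87 CPM, below the S0-Low library of the same number in 3 of 3 pairs for both, though the ranges overlapped. The log2 fold change against S0-Low was -1.68 (SE 0.80, adjusted p = 0.509) for Hbb-b1 and -2.02 (SE 0.64, adjusted p = 0.195) for Hbb-b2 in edgeR. Hbb-y had 31 counts in Lin+ against 3 in S0-Low, a 7.73-fold ratio with an exact 95% counting interval from 2.41 to 39.5 (adjusted p = 0.679 in edgeR), and Hbb-bh1 had 37 against none, at least 9.23-fold (adjusted p = 0.411 in edgeR). Single libraries carried both. Lin+ replicate 2 held 28 of the Hbb-y counts, and without it the ratio was 1.17-fold (0.156 to 8.70). Lin+ replicate 3 held 25 of the Hbb-bh1 counts, and without it the bound was 4.96-fold. None of the 4 genes was called in this comparison, in which 0.496% of the 17755 tested genes were called higher in Lin+, 0.22% were called lower and 6.96% had all Lin+ libraries below all S0-Low libraries. Against S3 all 4 were lower in Lin+, by log2 fold changes of -10.35 (Hbb-b1), -9.38 (Hbb-b2), -8.16 (Hbb-y) and -7.27 (Hbb-bh1), with adjusted p-values of at most 0.0069 in edgeR. Of the tested genes, 14.1% were called lower in Lin+ than in S3, and 17.3% had all Lin+ libraries below all S3 libraries, as all 4 members did.

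The few beta-like counts of Lin+ had a different makeup in 2 of the 3 libraries. Replicate 2 held 28 Hbb-y and 12 Hbb-bh1 counts among 631, an embryonic share of 6.34% (95% Wilson interval 4.69% to 8.52%), and replicate 3 held 3 and 25 among 297, a share of 9.43% (6.60% to 13.3%). Both intervals lay above that of every erythroid library. Replicate 1 held 0 of 75, which allows a share of up to 4% by the floor of 3 counts and up to 4.87% by the Wilson interval, within reach of the interval of replicate 2. Over the 3 libraries the adult-to-embryonic log2 ratio was 4.78 ± 2.15 against 6.18 ± 0.76 in S3 (SD, n = 3, exact permutation p = 0.4, adjusted p = 0.7). The Lin+ replicate 1 value in this was set by the pseudocount, as no embryonic count was found there, and without that library the difference of -1.40 became -2.63 (exact permutation p = 0.1, the smallest possible). Without Lin+ replicate 3 it was -0.63 and without Lin+ replicate 2 it was -0.94 (exact permutation p = 0.9 and 0.8). Against S0-Low, the ratio in Lin+ was lower by 4.39, with all Lin+ libraries below all S0-Low libraries (exact permutation p = 0.1, adjusted p = 0.35), and there both groups hold libraries without an embryonic count.

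Transcription factors and cofactors known to act on the cluster were listed with 9 enzymes of haem synthesis. Zfpm1, 1 of the 16 listed activators, was at 0 CPM in every group and was not tested. Of 15 tested activators, 9 were higher and 1 lower in S3 than in S0-Low by edgeR, with a median log2 fold change of 1.51 against -0.54 for all genes, of which 13.4% were called higher and 22.4% lower. Klf1, an erythroid factor that binds CACCC boxes and is needed for adult beta-globin transcription, rose by 2.93 (SE 0.54, adjusted p = 0.0008). Tal1 (2.72), Nfe2 (2.83), Mafk (2.51), Lyl1 (2.04), Mafg (1.93), Gata1 (1.80), Lmo2 (1.51) and Tcf3 (0.99) also rose, and Usf1 fell (-1.07, adjusted p = 0.0362). On library totals 6 activators were higher and 3 lower (Usf1, Ldb1 and Runx1), when 6.98% of all genes were called higher and 37.6% lower. Gata1, Lmo2 and Tcf3 did not pass there, with log2 fold changes of 0.91, 0.62 and 0.14. From S2 to S3, 5 of 15 passed upward (Mafk, Nfe2, Tal1, Mafg and Lyl1, the first of these at 2.10 with adjusted p = 0.0063), against 3.26% of all genes. On library totals 1 did, against 1.74% of all genes, and with the replicate block 7 did, against 7.3%. Ldb1 was called lower from S2 to S3 on library totals (-1.70, adjusted p = 0.0162 in edgeR), when 2264 of 16555 genes were called lower. With the replicate block it was also called lower (-1.17, adjusted p = 0.0019 in edgeR), when 1866 of 16555 were.

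Of 25 genes listed as repressors or modulators of the embryonic genes, 3 were higher and 7 lower in S3 than in S0-Low, with a median of -0.75 against -0.54 for all genes, of which 13.4% were called higher and 22.4% lower. The list pools repressors with modulators, so these counts give no direction of repression. Sox6, a repressor of embryonic globin genes in definitive cells, rose by 7.13 (SE 0.92, adjusted p = 5.12e-05 in edgeR), from 11.7 to 48.2 CPM in S0-Low to between 2941 and 3958 CPM in S3. Zbtb7a (1.76) and Mbd2 (1.66) also rose, Zbtb7a not passing on library totals. Bcl11a, the best known silencer of embryonic and fetal beta-like genes, stood at 457 ± 112 CPM in S0-Low and 617 ± 504 CPM in S3 (log2 fold change 0.43, SE 0.50, adjusted p = 0.515), with the sign turned on library totals (-0.33). Lin28b, which acts on globin switching through small RNAs, had -0.12 (SE 0.39, adjusted p = 0.835). The lower genes were Myb (-5.16), a progenitor factor, the RNA-binding Igf2bp1 (-4.03), Igf2bp2 (-6.87) and Igf2bp3 (-3.03), and Nr2c1 (-3.44), Ehmt2 (-3.82) and Chd4 (-1.48). On library totals 2 genes of this list were higher and 13 lower, when 6.98% of all genes were called higher and 37.6% lower. From S2 to S3, 0 of the list were called higher and 3 lower, against 3.26% and 6.09% of all genes. On library totals it was 0 and 8, when 288 and 2264 of 16555 genes were called higher and lower. With the replicate block it was 1 and 8, when 1208 and 1866 of 16555 were.

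Of the 9 haem enzymes, 8 were higher in S3 than in S0-Low (median log2 fold change 4.28) and 1 lower, against 13.4% and 22.4% of all tested genes. Alas2, the erythroid form of the first enzyme, rose by 9.49 (SE 0.64, adjusted p = 4.81e-07). Its housekeeping counterpart Alas1 fell by 2.83 on the log2 scale (SE 1.01, adjusted p = 0.0394). From S2 to S3, 5 of the 9 passed upward in edgeR, among them Alas2 (2.95) and Fech (1.83), which inserts iron into haem, against 3.26% of all genes. On library totals 2 passed, against 1.74% of all genes, and with the replicate block 8 did, against 7.3%.

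**Figure D4:**
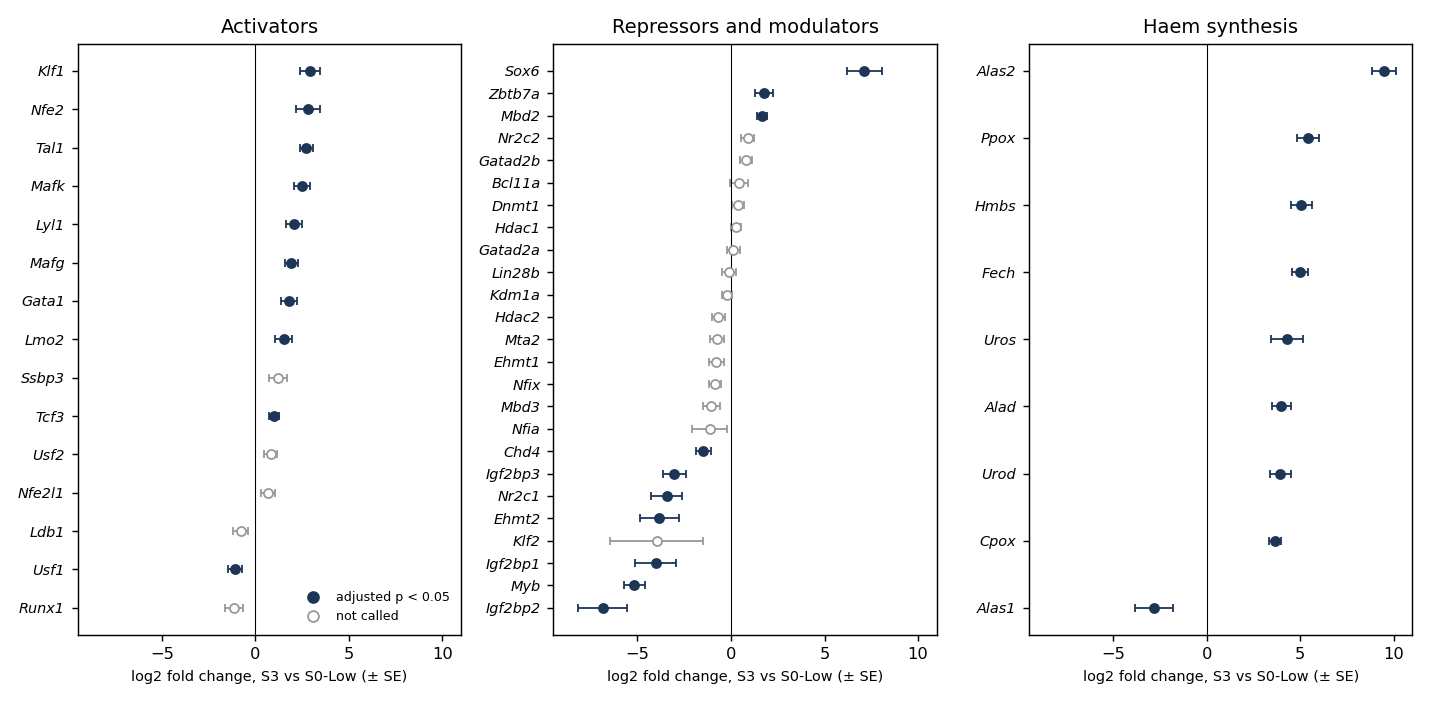
Log2 fold change with SE (edgeR, S3 against S0-Low) of the listed activators, repressors and modulators, and haem enzymes; filled points passed the adjusted p of 0.05. Alas2 (9.49) and Sox6 (7.13) lie farthest to the right, and Igf2bp2 (-6.87) and Myb (-5.16) farthest to the left.

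The genes most like each member over the 15 erythroid libraries were sought by Pearson's r of log2(CPM + 0.5) among 10199 genes. For Hbb-b1 they were Hba-a1 (r = 0.997), Epb4.2 (0.993), which encodes a protein of the red cell membrane skeleton, and Hba-a2 (0.992), and Hbb-b2 had the same 3 genes (0.996, 0.993 and 0.991). For Hbb-y they were Bpgm (0.971), the enzyme that makes the bisphosphoglycerate that lowers the oxygen affinity of haemoglobin, Artn (0.971) and Tom1l1 (0.970). For Hbb-bh1 they were 2610027K06Rik (0.992), the theta globin gene Hbq1b (0.984) and Mppe1 (0.982). Among the members, r was 0.994 for the adult pair and between 0.886 and 0.926 for the other pairings. These libraries share populations and replicate numbers, so the values describe likeness over them and no more. 2610027K06Rik showed the pattern of Hbb-bh1 closely, with 61.8 to 87.5 CPM in S3 and up to 8.89, 26.8 and 35.6 CPM in the highest libraries of S0-Medium, S1 and S2.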

How the data were processed

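The deposited counts are whole numbers of reads per Ensembl gene in 18 libraries of 75-base paired reads. The authors made them with kallisto 0.43.0 against GRCm38, per the submitters' processing notes, from stranded libraries with 14 PCR cycles. The transcript set, and how intronic reads were treated, are not given in the sources used here. Symbols came from a names table that paired 32651 identifiers. Ahsp found no match. Of the erythroid markers, 1 is not reported here and was left out of their sum.

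edgeR 4.0.16 (R 4.3.3) quasi-likelihood tests used TMM factors, filterByExpr and Benjamini-Hochberg adjustment over all tested genes, with a threshold of 0.05, on the 15 erythroid libraries (all 18 for Lin+). DESeq2 1.42.0, the tool of the study, was an alternative. Ratios used a pseudocount of 0.5 counts and two-sided exact permutation tests over libraries. Sequences, coordinates and motifs were read from RefSeq (GRCm38.p6) and GENCODE. Replicates of a group differed well beyond sampling noise (chi-square per degree of freedom 79.3 to 475). The test was checked on simulated counts.

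Replicate numbers are those of the labels, which tie them to no animal or batch. For every comparison but S3 against S0-Low and Lin+ against S3, same-numbered libraries deviated together in all pairs (lowest r = 0.17). There the numbers were taken as pairs in the pair counts, the replicate block and the sign-flip test. The main edgeR fits and the permutation tests used population only, without pairing. For S3 against S0-Low and Lin+ against S3 the lowest r was 0.0806 and 0.0905.

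The text names the 4 members, the remaining genes of the cluster, genes of the fixed lists and the 3 genes most like each member (mean of at least 100 normalized counts). The members and lists were chosen with earlier results of these data known.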

Additional observations from a re-analysis of the deposited data

How the results depend on the processing

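Which members were called depended on the filter, the scaling and single libraries at the steps, and less so between the ends of the series. With no filter on low counts, edgeR called 3 members for S0-Medium against S0-Low, 2 for S1 against S0-Medium (all higher) and 1 for Lin+ against S0-Low (lower), in each case from 0, when 43 and 82 of 28888 genes were called higher and 82 of 30157 lower. DESeq2 called 1 member for S0-Medium against S0-Low, when 28 of 16555 genes were called higher. The replicate block called 1 for S1 against S0-Medium, also when 28 of 16555 were. From S2 to S3, 3 members were called, when 540 of 16555 genes were called higher. Library totals left 1 member, when 288 of 16555 genes were called higher. A fit of only the 6 libraries compared also left 1, when 75 of 11911 were. Leaving out single libraries gave 0 to 3. The genes called higher then ran from 165 of 17670 (without S2 replicate 1) to 850 of 17700 (without S2 replicate 3). The cause was not tested. With at least 10 counts required in every compared library, 2 members in place of 4 were called for S3 against S0-Low and for Lin+ against S3, since Hbb-y and Hbb-bh1 were no longer tested. In these fits 1512 of 7873 genes were called higher in S3, and 1705 of 8173 lower in Lin+. The replicate block changed no other call of a member except that of Hbb-bh1 from S2 to S3 (adjusted p = 0.0247). Without the replicate 3 libraries, chosen after seeing the data, all 4 members were called from S2 to S3, when 1264 of 17255 genes were called higher.

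When single libraries were left out, the log2 fold change from S0-Medium to S1 ranged from -1.58 to 4.48 for Hbb-bh1 and from -0.24 to 3.29 for Hbb-y, the lowest values coming without S1 replicate 3. That of Hbb-bh1 for S2 against S1 ranged from -0.68 (without S2 replicate 3) to 3.96. The differences in log2 ratios could not pass the threshold in this design, so only their direction is compared. The adult-to-embryonic difference of S0-Medium from S0-Low (-2.47) became 0.75 with Hbb-y alone as the embryonic gene. The Hbb-b1 to Hbb-b2 difference ranged from -0.16 to 0.48 for S2 against S1 and from -0.19 to 0.67 for Lin+ against S0-Low when single libraries were left out, and the latter was -0.17 without the replicate 3 libraries. For Hbb-y to Hbb-bh1, S1 against S0-Medium became -0.19 and S3 against S0-Low 0.33 with a pseudocount of 5. Leaving out libraries gave ranges of -0.27 to 1.77 and -1.001 to 0.56 for these, the -1.001 being without the replicate 3 libraries, and of -1.99 to 0.04 for Lin+ against S3, which was 0.19 without the replicate 3 libraries. Few counts limit the precision of Hbb-y before S2, where all 9 libraries held under 50 of them. The count ratios against S0-Low with single libraries left out were also chosen after seeing the data.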
